A study of Mus musculus with 6 samples.

Results

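The expression of 10 genes of S-adenosylmethionine (SAM) and polyamine metabolism was examined in naïve CD4 T cells with and without Rnmt. These were Mat2a, Mat2b, Ahcy, Ahcyl1, Mtr and Mettl16 on the SAM side, and Odc1, Amd1, Srm and Sms on the polyamine side. They were chosen by gene symbol from knowledge of the pathways, and all 10 were found among the 46983 genes in the count tables. RNA was depleted of ribosomal RNA and sequenced from cells sorted from mouse lymph nodes as naïve CD4 T cells, with TCRb, CD4, CD44 and DAPI among the stains used. There were 3 control libraries from male Rnmt fl/fl mice without the CD4-Cre transgene, and 3 Rnmt cKO (conditional knock-out) libraries from male Rnmt fl/fl mice with it. Both groups therefore carried floxed Rnmt alleles, in which loxP sites flank exon 3, and no age was given in the sources used here. The study states that its mice were kept on a C57B6/J background. CD4-Cre acts from the double positive thymocyte stage onwards, so it deletes in CD4 and CD8 T cells alike, and the presence of Cre and the loss of Rnmt cannot be told apart.

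RNMT is the methyltransferase that adds the N7 methyl group to the guanosine cap of mRNA, and SAM is its methyl donor. MAT2A is the catalytic subunit of the enzyme that makes SAM from methionine and ATP in cells outside the liver, and MAT2B is its regulatory subunit. Each methyl transfer leaves S-adenosylhomocysteine, an inhibitor of methyltransferases, which AHCY hydrolyses to homocysteine and adenosine. The methionine synthase MTR returns homocysteine to methionine with a methyl group from folate. The polyamine branch takes SAM after its decarboxylation by AMD1. ODC1 makes putrescine from ornithine, and the spermidine synthase SRM and the spermine synthase SMS add aminopropyl groups from decarboxylated SAM. Activated T cells are known to raise methionine uptake and polyamine synthesis, while resting naïve cells run both at a low rate.

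Mat2a mRNA is regulated through its 3′ UTR. METTL16, an m6A methyltransferase, is known to act on hairpins there that carry the sequence TACAGAGAA (written as DNA), in a manner that depends on the SAM level. This exact sequence, called the motif here, was searched on the transcribed strand of every protein-coding 3′ UTR in the GENCODE vM21 annotation (mm10). Variants of it were not searched. The Mat2a 3′ UTR of 2178 bases held it 5 times. The matches are shown because they are the sequence feature that links 2 of the genes, Mettl16 and Mat2a. Capitals mark the motif, and 10 bases are given on either side, 5′ to 3′ on the minus strand of chromosome 6.

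Mat2a match 1, chr6:72434235-72434263: tggcgtaggtTACAGAGAAgccttcaagc
Mat2a match 2, chr6:72433451-72433479: ccttgtgataTACAGAGAAgtcacagggc
Mat2a match 3, chr6:72433272-72433300: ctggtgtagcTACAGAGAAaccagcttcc
Mat2a match 4, chr6:72433157-72433185: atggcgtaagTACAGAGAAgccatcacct
Mat2a match 5, chr6:72432938-72432966: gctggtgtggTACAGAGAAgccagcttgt

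The matches lay between 724 and 2021 bases after the stop codon. Of 20971 protein-coding genes with an annotated 3′ UTR, 503 (2.4%) held the motif at least once. Among the 4750 genes whose 3′ UTR was at least as long as that of Mat2a, 6.63% did. Mat2a was the only gene with 5 matches, and the largest number in any other gene was 3. None of the other members held the motif in its 3′ UTR.

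Reads counted to genes on the sense strand came to between 8873413 and 11277764 per library, which put between 142 and 1951 reads on each member in each library. Rnmt, the targeted gene, was counted over its whole length although only exon 3 is removed. It measured 51.5, 58.7 and 57.9 CPM (gene counts put on a common library size with TMM factors) in controls 1 to 3 and 42.0, 37.5 and 26.6 CPM in Rnmt cKO 1 to 3. It fell by 0.67 on the log2 scale (SE 0.20, edgeR exact test, adjusted p = 0.00035). Among markers of naïve CD4 T cells, Cd4 measured 657 to 688 CPM in controls and 823 to 909 CPM in Rnmt cKO libraries. The transcription factor gene Lef1 measured 812 to 883 CPM and 842 to 906 CPM. Il7r was lower in Rnmt cKO libraries, with 336 to 386 CPM in controls and 175 to 203 CPM. The calls for the whole list of these markers are given below. The share of uniquely mapped reads counted to no gene on the sense strand ranged from 36.1% to 46.1% in controls and from 31.8% to 47.9% in Rnmt cKO libraries. It is called the share of reads in no gene here. Because reads were counted over exons, it includes reads in introns and reads antisense to genes. Rnmt cKO 3 had the lowest share, and Rnmt cKO 1 and 2 and control 3 the highest. The labels name separate samples and say no more, while a supplementary legend of the study gives 3 control and 3 Rnmt cKO mice for its naïve CD4 RNA-seq. The exact test p-values rest on the variation between these samples, estimated for each gene with information shared over all tested genes. The SEs rest on each gene's own libraries alone.

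Levels of different genes were compared as RPKM, which is CPM divided by exon length in kilobases. The length was that of all annotated exons of a gene together, which can exceed that of the transcript expressed. In controls, Mat2a was the highest of the 10 at 53.4 ± 4.0 RPKM (SD, n = 3), followed by Mat2b at 40.3 ± 1.99 RPKM. Ahcyl1 (22.8 ± 0.41 RPKM), Srm (20.2 ± 3.78 RPKM) and Odc1 (16.5 ± 1.98 RPKM) came next, and in this stretch Srm overlapped both of its neighbours. Amd1 (13.3 ± 0.68 RPKM) and Sms (12.4 ± 0.70 RPKM) overlapped each other, as did Mtr (7.31 ± 0.22 RPKM) and Ahcy (7.15 ± 0.35 RPKM). Mettl16 was the lowest at 4.86 ± 0.25 RPKM. This rank depends on its exon length of 12704 bases, as its mean of 61.7 CPM was above that of Ahcy (18.2 CPM). By uniquely mapped reads, the SAM synthetase genes thus stood above the others in resting cells, while the hydrolase Ahcy was among the lowest, below its relative Ahcyl1. The Ahcy value may be too low in this ranking. Its annotated copy Gm4737 is 99.7% identical over 2083 bases, reads that map to both were not counted, and no such copy was found for Ahcyl1.

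The order was little different in Rnmt cKO cells. Mat2a measured 46.3 ± 2.03 RPKM (SD, n = 3) and Mat2b 43.6 ± 6.02 RPKM, and these first ranks, which were apart in controls, overlapped here. Odc1 stood at 21.2 ± 3.27 RPKM and Srm at 20.7 ± 1.91 RPKM, in the reverse of their control order but overlapping. Sms (11.7 ± 0.29 RPKM) and Amd1 (11.6 ± 1.25 RPKM) had also changed places and overlapped. Levels of Amd1, Odc1, Sms, Ahcy and Mat2a may be understated, because reads that map to more than 1 place were not counted and near-identical copies of these genes are annotated. With at least 95% identity over at least 150 bases, Odc1 had 7 such copies, Amd1 5, Sms 3, Ahcy 2 and Mat2a 1. The Amd1 copy Amd2 was 99.6% identical over 3202 bases and had at most 4 uniquely mapped reads in a library. No such copy was found for Mat2b, Ahcyl1, Mtr, Mettl16 or Srm.

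Rnmt cKO and control cells were compared to ask whether the genes that supply and use SAM differ in mRNA level when the cap methyltransferase is lost. None of the 10 members passed the test in either direction (edgeR exact test, adjusted over 12336 tested genes), where 14.8% of all tested genes did, 6.84% lower and 8% higher. The count was also 0 with the edgeR quasi-likelihood test, DESeq2 and limma-voom, which called 11.6%, 10.9% and 11.1% of all tested genes. At an unadjusted p under 0.05 there were 2 members, Odc1 and Mat2a, beside 25% of all tested genes. The median log2 fold change of the members was -0.04, with 6 below 0 and 4 above, beside a median of 0.01 over all tested genes. Their summed level was 645 to 665 CPM in controls and 629 to 666 CPM in Rnmt cKO libraries. Groups did not overlap for 1 member, Mat2a, which was lower, and this held for 14.9% of all tested genes in that direction, 16.6% in the higher direction and 31.4% in either.

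**Figure D1:**
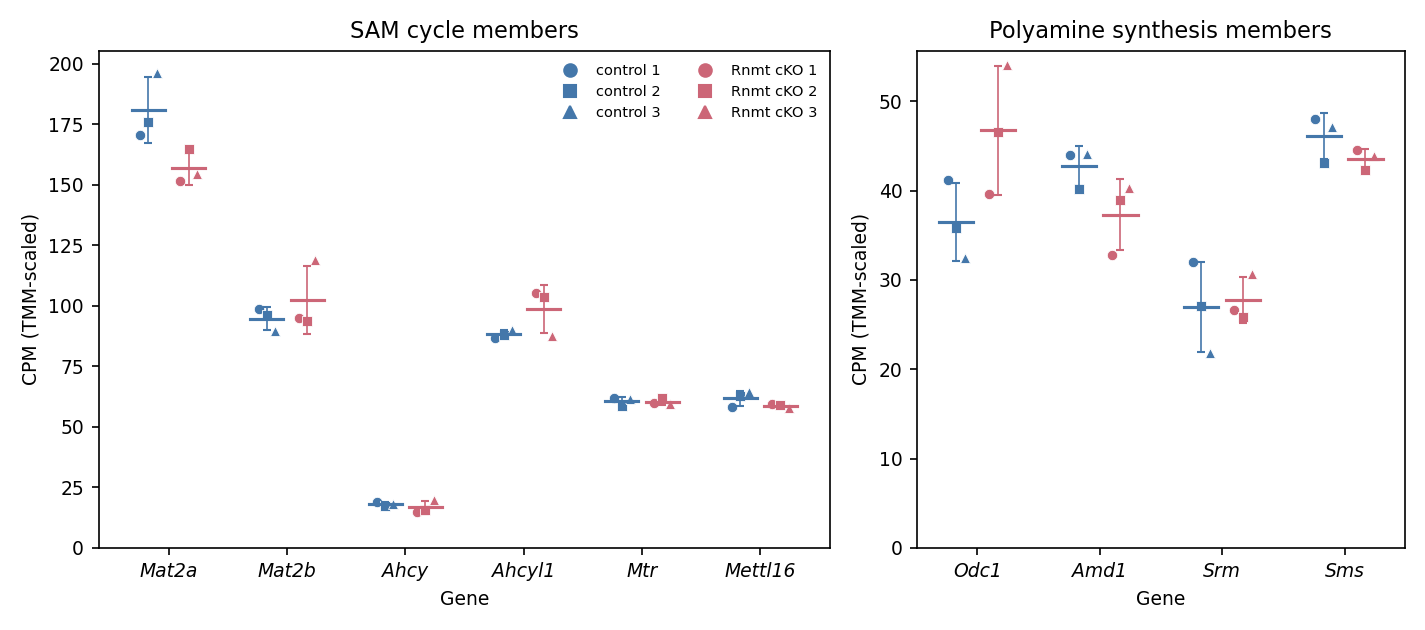
Level of each member in every library, in CPM on a linear axis from 0. Symbols mark the libraries, horizontal lines the group means and bars the SD (n = 3), and Mat2a is the only gene whose control (170.6 to 196.3 CPM) and Rnmt cKO values (151.5 to 164.6 CPM) do not overlap.

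Among the genes of SAM synthesis, Mat2a (chromosome 6, 72432799 to 72439558) measured 170.6, 175.9 and 196.3 CPM in controls 1 to 3 and 151.5, 164.6 and 154.3 CPM in Rnmt cKO 1 to 3. All 3 Rnmt cKO libraries lay lower than the lowest control. The log2 fold change came to -0.21 (SE 0.07), with an unadjusted p of 0.033 and an adjusted p of 0.15, and the 95% interval from limma-voom ran from -0.39 to -0.02. The difference lay in the same direction in all 16 alternative analyses, from -0.25 to -0.08, and was smallest with scaling by library size alone (-0.08, exact test, adjusted p = 0.67). It passed the threshold in 1, in which the share of reads in no gene was a covariate (-0.21, adjusted p = 0.019), a fit that called 25.6% of all tested genes. Among the 3 libraries with a low share (controls 1 and 2 and Rnmt cKO 3) the log2 ratio was -0.17, and among the 3 with a high share (control 3 and Rnmt cKO 1 and 2) it was -0.31, each with a single library on one side. An annotated antisense transcript, Particl, overlaps the start of Mat2a, and antisense reads over Mat2a numbered 18 to 38 per library, 1.8% of its sense reads.

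Mat2b (chromosome 11, 40679314 to 40695203), the regulatory subunit, measured 98.5, 96.0 and 89.5 CPM in controls and 94.8, 93.7 and 118.8 CPM in Rnmt cKO libraries. Rnmt cKO 3 stood above the other 5 libraries, which overlapped. The log2 fold change was 0.11 (SE 0.12, adjusted p = 0.61, 95% interval -0.12 to 0.33), and without Rnmt cKO 3 it was -0.02. The log2 ratio was 0.29 in the libraries with a low share of reads in no gene and 0.08 in those with a high share. The estimates for the catalytic and regulatory genes thus had opposite signs over all libraries but the same sign without Rnmt cKO 3, with no difference called for either.

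Mettl16 (chromosome 11, 74770830 to 74828525), the methyltransferase that acts on the Mat2a 3′ UTR, measured 58.2, 62.6 and 64.4 CPM in controls and 59.4, 59.1 and 57.6 CPM in Rnmt cKO libraries. The groups overlapped through control 1. Its log2 fold change was -0.07 (SE 0.05, adjusted p = 0.73), with a 95% interval from -0.25 to 0.10.

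Ahcy (chromosome 2, 155059310 to 155074497), the hydrolase for S-adenosylhomocysteine, measured 19.0, 17.3 and 18.2 CPM in controls and 15.0, 15.4 and 19.8 CPM in Rnmt cKO libraries. Rnmt cKO 1 and 2 were below all controls and Rnmt cKO 3 was above them. The log2 fold change was -0.11 (SE 0.13, adjusted p = 0.73, 95% interval -0.43 to 0.18). Within the libraries with a high share of reads in no gene the log2 ratio was -0.26, and within those with a low share it was 0.13.

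Ahcyl1 (chromosome 3, 107663118 to 107696560), which encodes a relative of AHCY known as an inhibitor of inositol trisphosphate receptors, lay in the other direction from Ahcy in Rnmt cKO 1 and 2 only. It measured 86.8, 88.0 and 89.9 CPM in controls and 105.1, 103.6 and 87.5 CPM in Rnmt cKO libraries. Rnmt cKO 1 and 2 were above all controls and Rnmt cKO 3 was among them. The log2 fold change was 0.16 (SE 0.09, adjusted p = 0.33, 95% interval -0.04 to 0.35). Without Rnmt cKO 3 it was 0.22 and passed the threshold (adjusted p = 0.035), in a fit that called 20.6% of all tested genes. By share of reads in no gene the log2 ratio was 0.0013 in the low and 0.22 in the high libraries.

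Mtr (chromosome 13, 12182712 to 12258113), the methionine synthase, was the member closest to no difference. It measured 62.1, 58.6 and 61.3 CPM in controls and 59.8, 62.1 and 59.4 CPM in Rnmt cKO libraries. The groups lay on top of each other, and the log2 fold change was below 0.01 in size (SE 0.03, adjusted p = 1, 95% interval -0.18 to 0.17).

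Odc1 (chromosome 12, 17544794 to 17551505), the gene of ornithine decarboxylase, had the largest difference of the 10. It measured 41.1, 35.8 and 32.5 CPM in controls and 39.6, 46.6 and 54.0 CPM in Rnmt cKO libraries. Rnmt cKO 2 and 3 were above all controls, and Rnmt cKO 1 was below control 1. The log2 fold change was 0.36 (SE 0.16), a mean level 28.4% higher in Rnmt cKO cells, with an unadjusted p of 0.011, an adjusted p of 0.069 and a 95% interval from 0.07 to 0.65. It was above 0 in all 16 alternative analyses, from 0.23 to 0.48, and passed the threshold in 4. These were scaling by library size alone (0.48, adjusted p = 0.002), the covariate fit (0.39, adjusted p = 0.0026), and the fits without control 1 (0.45, adjusted p = 0.044) and without Rnmt cKO 1 (0.46, adjusted p = 0.017), which called 20%, 25.6%, 10.7% and 10.4% of all tested genes in that order. Across all 16 the adjusted p reached 0.31. Among the 3 libraries with a low share of reads in no gene the log2 ratio was 0.49, and among the 3 with a high share it was 0.41. Myc, a known activator of Odc1 transcription, measured 73.7, 78.3 and 72.1 CPM in controls and 74.3, 78.0 and 90.6 CPM in Rnmt cKO libraries, with a log2 fold change of 0.12 (SE 0.09, adjusted p = 0.55).

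Amd1 (chromosome 10, 40287458 to 40302186), the decarboxylase that commits SAM to polyamine synthesis, lay in the other direction from Odc1. It measured 44.0, 40.2 and 44.1 CPM in controls and 32.8, 38.9 and 40.2 CPM in Rnmt cKO libraries. Rnmt cKO 1 and 2 were below all controls, and Rnmt cKO 3 was level with control 2. The log2 fold change was -0.19 (SE 0.10, adjusted p = 0.31, 95% interval -0.42 to 0.04). It stayed below 0 in all 16 alternative analyses, from -0.27 to -0.07, and passed the threshold in 0 of them. The log2 ratio was -0.07 among the libraries with a low share of reads in no gene and -0.30 among those with a high share.

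The aminopropyl transferases differed less. Srm (chromosome 4, 148591503 to 148594993) measured 32.0, 27.0 and 21.9 CPM in controls and 26.6, 25.9 and 30.7 CPM in Rnmt cKO libraries. All Rnmt cKO values lay inside the control range, which was the widest of the 10 with a coefficient of variation of 18.7%, and the log2 fold change was 0.04 (SE 0.17, adjusted p = 0.93, 95% interval -0.25 to 0.37). Sms (chromosome X, 157443855 to 157492287) measured 48.0, 43.1 and 47.2 CPM in controls and 44.5, 42.4 and 43.8 CPM in Rnmt cKO libraries. Its groups overlapped through control 2, and the log2 fold change was -0.08 (SE 0.05, adjusted p = 0.72, 95% interval -0.27 to 0.11). In the libraries with a low and a high share of reads in no gene, the log2 ratio was 0.05 and 0.26 for Srm, -0.06 and -0.12 for Sms, -0.07 and -0.12 for Mettl16, and -0.02 and -0.01 for Mtr.

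**Figure D2:**
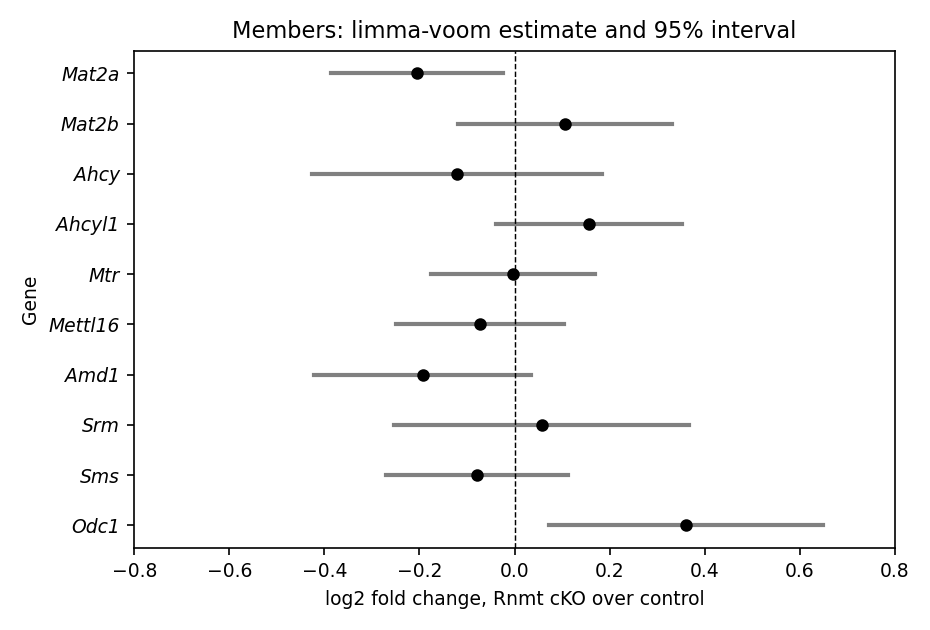
Log2 fold change of each member (Rnmt cKO over control, points) with the 95% interval from limma-voom (bars, n = 3 per group) and a dashed line at no difference. The intervals of Odc1 (0.07 to 0.65) and Mat2a (-0.39 to -0.02) lie to either side of 0 and the other 8 include it; the intervals are not adjusted for the number of genes.

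Pairs of genes with linked functions were also compared within each library, which needs no scaling between libraries. The log2 ratio of Mat2a to Mat2b, both per length, was 0.26, 0.34 and 0.60 in controls and 0.15, 0.28 and -0.15 in Rnmt cKO libraries. The groups overlapped, with a difference of -0.31 (exact two-sided permutation test, p = 0.2, where 0.10 is the smallest p possible with 3 against 3). The log2 ratio of Ahcy to Ahcyl1 was -1.58, -1.74 and -1.70 in controls and -2.20, -2.14 and -1.54 in Rnmt cKO libraries. Rnmt cKO 1 and 2 were below all controls and Rnmt cKO 3 above them, with a difference of -0.29 (exact permutation test, p = 0.4).

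The ratio of Odc1 to Oaz1, the gene of the antizyme that binds ODC1 and sends it to the proteasome, separated the groups. Its log2 value was -2.95, -2.99 and -2.96 in controls and -2.65, -2.37 and -2.74 in Rnmt cKO libraries. Every Rnmt cKO library was above every control, and the controls had an SD of 0.02. Groups also did not overlap for 31.4% of single tested genes in either direction, and no such share was computed for gene pairs. The ratio is one of mRNA and does not measure the balance of the 2 proteins. The difference of 0.38 had an exact permutation p of 0.1, the smallest the design allows. Adjusted over the 3 ratios tested, p was 0.3 for Odc1 to Oaz1, 0.3 for Mat2a to Mat2b and 0.4 for Ahcy to Ahcyl1. Oaz1 itself measured 155, 139 and 123 CPM in controls and 121, 117 and 176 CPM in Rnmt cKO libraries. In the controls Odc1 and Oaz1 had the same order over the 3 libraries, while in Rnmt cKO cells Odc1 was higher relative to Oaz1 in each library.

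**Figure D3:**
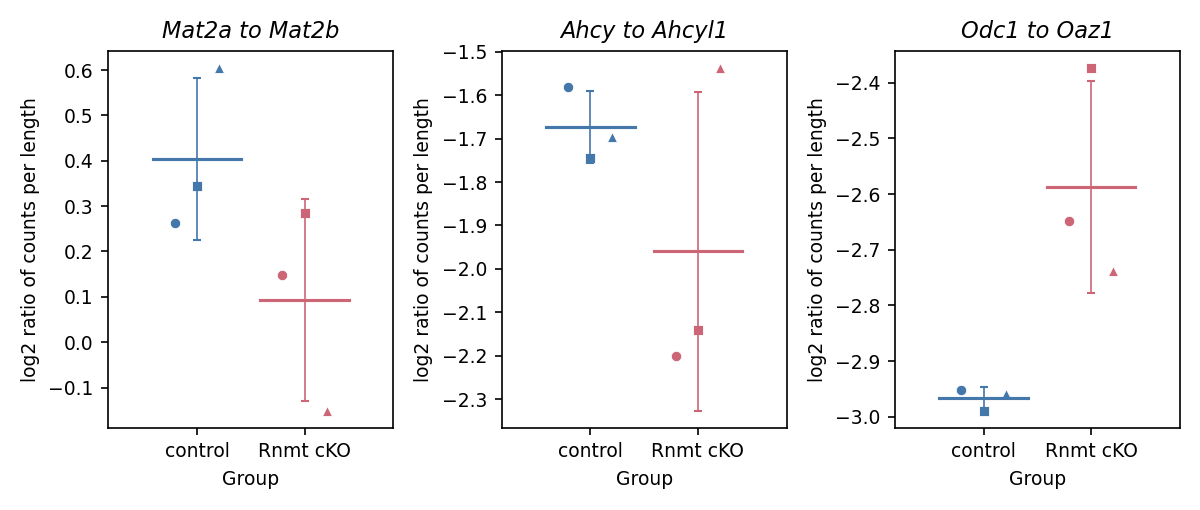
Log2 ratio of counts per length of linked genes in each library (circle, square and triangle for replicates 1, 2 and 3), with group means and SD (n = 3). Odc1 to Oaz1 lies between -2.99 and -2.95 in controls and between -2.74 and -2.37 in Rnmt cKO libraries, and the groups overlap for the other pairs.

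The members were set beside 53 other genes of the same and adjoining pathways, of which 39 were tested and 14 were too low. The low ones included the liver SAM synthetase gene Mat1a and the arginase genes Arg1 and Arg2, and none of the 14 had more than 6 reads in a library. Among the 39, 2 fell and 3 rose (edgeR exact test), a share of calls to be read beside the 14.8% of all tested genes, and their median log2 fold change was -0.01. In the methionine cycle, Adk, which encodes the kinase that removes the adenosine released by AHCY, measured 42.8, 37.0 and 37.6 CPM in controls and 29.8, 27.3 and 33.4 CPM in Rnmt cKO libraries. All Rnmt cKO values were below all controls, and Adk fell by 0.37 on the log2 scale (SE 0.11, adjusted p = 0.022). The call was held in 7 of 16 alternative analyses, with an adjusted p from 0.00087 to 0.17, and was lost when the library left out was control 1 (giving -0.31) or 2 (giving -0.41), and likewise Rnmt cKO 1 (giving -0.37) or 2 (giving -0.31).

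In the folate cycle, which supplies the methyl group used by MTR, 12 of 13 genes were tested, 1 fell and 2 rose. Mthfd1l, a mitochondrial enzyme that releases formate, measured 70.0, 75.8 and 73.1 CPM in controls and 54.7, 52.9 and 60.9 CPM in Rnmt cKO libraries and fell by 0.38 (SE 0.07, adjusted p = 0.0026). Tyms, which encodes thymidylate synthase and serves DNA synthesis, measured 4.59, 7.69 and 5.52 CPM in controls and 10.5, 11.2 and 10.5 CPM in Rnmt cKO libraries and rose by 0.84 (SE 0.21, adjusted p = 0.0015). For both genes the groups did not overlap. The call was held in 13 of 16 alternative analyses for Mthfd1l and 15 of 16 for Tyms. Without control 2, Mthfd1l stood at -0.35 with an adjusted p of 0.0502.

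Methionine salvage recycles the methylthioadenosine that SRM and SMS release. All 6 of its genes were tested, all 6 were below 0 on the log2 scale, from -0.33 to -0.08, and none passed the test. Mtap, which cleaves methylthioadenosine, measured 56.0, 50.6 and 53.0 CPM in controls and 45.4, 47.7 and 52.6 CPM in Rnmt cKO libraries (-0.13, SE 0.07, adjusted p = 0.50). The smallest adjusted p of the list was that of Got1, a transaminase, with 21.7, 25 and 21.5 CPM in controls against 17.3, 18.6 and 18.6 CPM in Rnmt cKO libraries (-0.33, SE 0.08, adjusted p = 0.085). Groups did not overlap for 2 of the 6 genes, beside 14.9% of all tested genes in that direction, and 5897 of the 12336 tested genes lay below 0. Of the 7 genes of SAM sensing and transport, Mettl16 included, none passed, and the smallest adjusted p was 0.43 for the mitochondrial SAM carrier Slc25a26 (-0.27, SE 0.12).

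Around the polyamine members, no regulator passed the test. Oaz1 had a log2 fold change of -0.01 (SE 0.21), Oaz2, another antizyme gene, -0.19 (SE 0.12), and Azin1, the gene of the antizyme inhibitor, 0.09 (SE 0.04), with adjusted p between 0.52 and 0.997. Azin1 was higher in every Rnmt cKO library (96.5 to 102.3 CPM) than in every control (89.5 to 95.4 CPM), by a small margin. None of the 5 tested genes of polyamine catabolism and transport passed either. Sat1, which acetylates spermidine and spermine, measured 87.5, 79.5 and 71.7 CPM in controls and 85.3, 90.3 and 92.0 CPM in Rnmt cKO libraries (0.17, SE 0.09, adjusted p = 0.32). Smox, the spermine oxidase gene, was lower in every Rnmt cKO library (8.56 to 10.6 CPM) than in every control (11.2 to 14.6 CPM), with a log2 fold change of -0.40 (SE 0.15, adjusted p = 0.16), which ranged from -0.26 without control 2 (adjusted p = 0.59) to -0.52 without Rnmt cKO 3 (adjusted p = 0.038, in the fit that called 20.6% of all tested genes).

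Spermidine is also the substrate from which hypusine is built on the translation factor eIF5A. Eif5a measured 206, 173 and 174 CPM in controls and 211, 216 and 285 CPM in Rnmt cKO libraries. It rose by 0.37 on the log2 scale (SE 0.16, adjusted p = 0.046), with no overlap between the groups. The call was held in 6 of 16 alternative analyses, with an adjusted p of up to 0.25. On all libraries it was lost with the quasi-likelihood test (adjusted p = 0.085), DESeq2 (adjusted p = 0.064) and limma-voom (adjusted p = 0.093). Dropping control 2 or 3 ended the call (0.32 in both cases), as did dropping Rnmt cKO 3 (0.19). The genes of the hypusination enzymes, Dhps (0.13, SE 0.14) and Dohh (0.17, SE 0.17), did not pass. As with Mat2b, Oaz1 and Odc1, the highest Eif5a value was in Rnmt cKO 3, the library with the lowest share of reads in no gene.

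**Figure D4:**
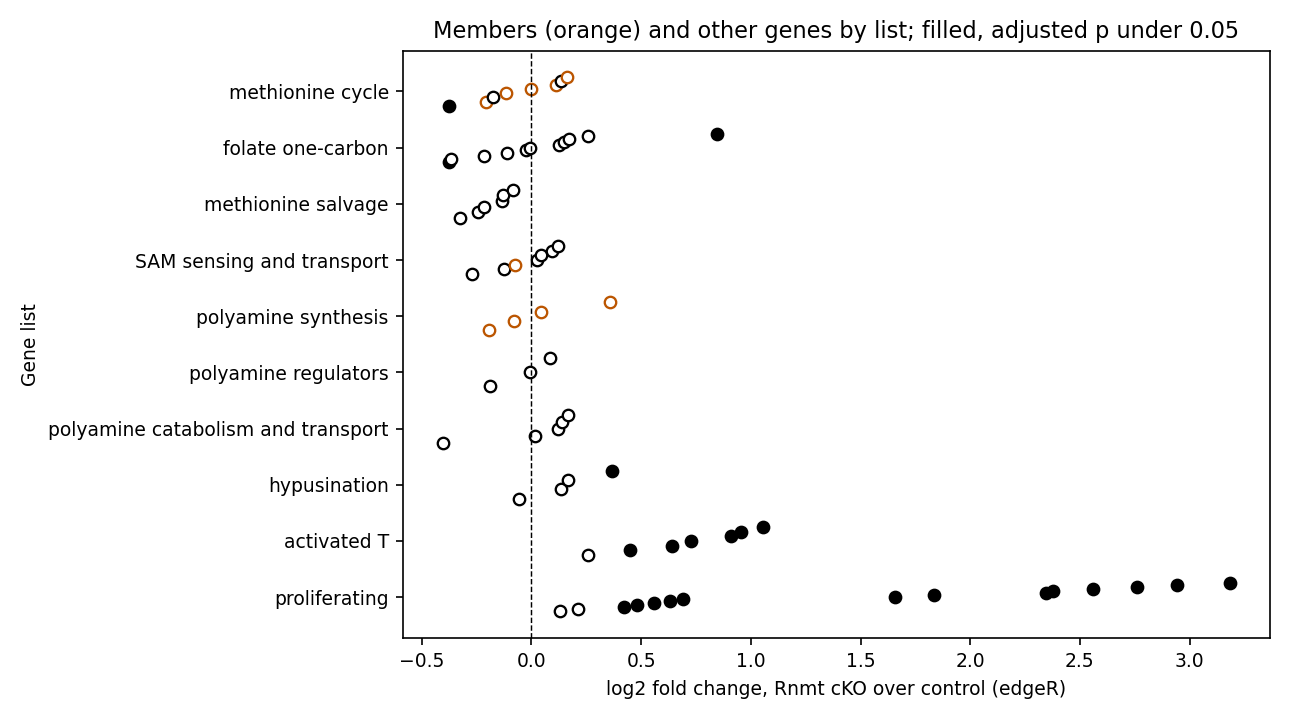
Log2 fold change (edgeR, Rnmt cKO over control) of the genes by list, with members in orange and filled symbols for an adjusted p under 0.05. No member is filled, the other pathway genes drawn run from -0.40 (Smox) to 0.84 (Tyms), and the proliferating cell markers reach 3.19.

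Most markers of dividing and activated T cells differed between the groups, although Mcm2 (0.13), Pcna (0.21) and Cd69 (0.26) did not pass the test and had smaller log2 fold changes than Odc1. Of 15 markers of proliferating cells, 13 rose and none fell, with a summed level of 479 to 521 CPM in controls and 848 to 940 CPM in Rnmt cKO libraries. Of 7 markers of activated T cells, 6 rose, and their sum was 233 to 248 CPM in controls and 333 to 391 CPM in Rnmt cKO libraries. These sums differed between the groups in the same direction as Odc1, Tyms and Eif5a. Mat2a, Amd1, Adk and Mthfd1l lay in the other direction, as did 6 of the 10 members in all. The part of dividing and activated cells in any of these results was not tested. In bulk RNA, a different number of such cells and a different amount of RNA per cell cannot be told apart.

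Of the 10 markers of naïve CD4 T cells, 4 rose, 1, Il7r, fell and 5 did not pass. Markers of other cells that the sort could hold were also counted. The 7 B cell markers summed to 42.1 to 48.9 CPM in controls and 54.3 to 93.9 CPM in Rnmt cKO libraries, and 5 of them rose. The 7 myeloid markers summed to 5.99 to 7.95 CPM and 10.8 to 24.0 CPM, with 1 of 3 tested rising, and the 4 plasma cell markers to 7.84 to 10.6 CPM and 11.9 to 35.9 CPM, with 1 of 2 tested rising. Both CD8 T cell markers fell, with sums of 21.7 to 23.3 CPM and 13.5 to 17.3 CPM, and so did 2 of 4 regulatory T cell markers (150 to 193 CPM and 116 to 146 CPM). Of 10 memory or effector markers 3 were tested, of which 2 fell and 1 rose, and the 10 summed to 156 to 162 CPM in controls and 129 to 161 CPM in Rnmt cKO libraries. Both tested erythroid markers fell. The part of these cells in the members' values was not tested.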

How the data were processed

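RNA from 3 control and 3 Rnmt cKO samples was sequenced after rRNA depletion. The authors aligned reads to mm10 with STAR 2.5.2b (GENCODE vM12 annotation) and deposited per-sample tables of read counts per gene. They also deposited a table of their own edgeR comparison, of which the fold change and p-value columns were not used. Its normalised signal columns, scaled by the authors to a common library size, served to identify the strand. Dividing the sense counts by 1 constant per library gave this signal for 100% of genes within 0.1%, so sense counts were used. Summary lines, such as reads in no gene, entered neither library sizes nor tests.

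Genes above 1 CPM in 3 or more libraries were scaled with TMM factors and tested with the exact test in edgeR 4.0.16 (R 4.3.3), with Benjamini-Hochberg adjustment over all tested genes and a threshold of 0.05. The study names edgeR, its exact test and this CPM limit but no scaling factors, and its deposited table holds 11221 genes where 12336 were tested here. Log2 fold changes were computed as Rnmt cKO over control. Standard errors come from per-library log2 CPM with a prior count of 2. Intervals come from limma-voom (limma 3.58.1), added after seeing the data. Ratios of 2 genes used an exact two-sided permutation test over libraries (scipy 1.17.1), with 0.5 added to each count. Coordinates, exon lengths for RPKM and 3′ UTRs are from GENCODE vM21 on the same build, in which 46488 of the 46983 gene identifiers were found, and near-identical copies were sought with blastn 2.17.0. The code was tested on simulated data.

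Alternatives were the quasi-likelihood test, DESeq2 1.42.0, other scaling, filters and strand settings, a covariate, a replicate block and leaving out each library. The members and gene lists were chosen with earlier results of these data known. The genes named are Rnmt, all members, the pathway genes past the threshold (1 of them is counted but not reported by name here, nor drawn), the gene with the smallest adjusted p in each pathway list that had none, Oaz1, Oaz2, Azin1, Sat1, Smox, Mtap, Eif5a and Myc. Other named genes (Dhps, Dohh, Mat1a, Arg1, Arg2 and cell type markers such as Lef1, Mcm2, Pcna and Cd69) were chosen after their values were seen. The chi-square per degree of freedom between replicates of a group ranged from 3.63 to 22.9, so no such pair was a duplicate library. The replicates were not equally alike. Rnmt cKO 1 and 2 gave 3.63, while Rnmt cKO 3 gave 22.1 and 22.9 against them. Controls 2 and 3 gave 4.2, while control 1 gave 10.3 and 13.3 against them.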

Additional observations from a re-analysis of the deposited data

How the results depend on the processing

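The counts of members past the threshold stayed at 0 in both directions in 11 of 16 alternatives. Scaling by library size alone gave 1 member higher and 0 lower, the covariate fit with the share of reads in no gene gave 1 higher and 1 lower, and leaving out 1 library gave 0 to 1 higher and 0 lower. The pathway genes other than members gave 2 lower and 3 higher. Library size alone gave 0 lower and 5 higher, the covariate fit 4 lower, and DESeq2, limma-voom and no filter on low counts 1 lower each. Leaving out 1 library gave 0 to 4 lower, with 0 without control 2 and 4 without Rnmt cKO 3, and 2 to 3 higher. Over all genes, 844 lower and 987 higher became 535 and 1938 with library size alone, 1466 and 1696 with the covariate, and 547 to 1285 and 643 to 1221 with 1 library left out. Library size alone moved the median log2 fold change of all tested genes from 0.01 to 0.14, and 8 members then lay above 0 in place of 4. It reversed Ahcy (0.0052), Mtr (0.12), Mettl16 (0.0496), Sms (0.0435) and Oaz1 (0.11), and the covariate fit reversed Oaz1 (0.0234). With 1 library left out, Mat2b ranged from -0.0239 to 0.17, Mtr from -0.03 to 0.0111, Srm from -0.0874 (without control 3) to 0.1775 and Oaz1 from -0.2374 to 0.0921, so each changed sign. The 3 ratios kept their direction in every alternative run, but with 1 library left out Mat2a to Mat2b ranged from -0.41 to -0.19 (without Rnmt cKO 3), Ahcy to Ahcyl1 from -0.50 (without Rnmt cKO 3) to -0.17 (without Rnmt cKO 1) and Odc1 to Oaz1 from 0.27 to 0.46. The cause of these moves was not tested.

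The groups share replicate numbers 1 to 3 in the labels, but nothing says that a number marks a shared litter or day, and deviations of same-numbered libraries were correlated at -0.21, -0.02 and -0.35. With the replicate number as a block (quasi-likelihood test), 276 genes were lower and 431 higher, and 0 members and 0 other pathway genes passed in either direction. Odc1 then had a log2 fold change of 0.36 (adjusted p = 0.24) and Mat2a of -0.20 (adjusted p = 0.30). With 3 libraries per group, the members' 95% intervals ran as low as -0.43 (Ahcy) and as high as 0.65 (Odc1), which limits the size of difference that could be seen.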
